A study of Bos taurus with 7 samples.

Results

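The transcripts of 9 genes of lipoprotein transport were followed in bovine luteal tissue on day 6 and day 4 of the estrous cycle. The genes were chosen by symbol as a fixed list of 9 among the 19539 entries of the expression table, and each symbol stood on a single entry. The list holds 5 apolipoproteins (APOA1, APOD, APOE, APOM and CLU), the phospholipid transfer protein PLTP, and 3 related lipoprotein receptors (LRP1, LRP8 and VLDLR). After ovulation the follicle turns into the corpus luteum, a gland that makes progesterone from cholesterol. Whole luteal tissue of untreated cows (Bos taurus) had been snap frozen on day 6 (4 libraries) or day 4 (3 libraries), and all cows had gone through the same synchronisation with a progesterone device, PGF2α and gonadotropin-releasing hormone. Per the labels, day 4 glands were taken at slaughter and glands after day 6 by colpotomy, through the vaginal wall. For day 6 itself the labels do not spell it out, so day and route of collection may coincide and then cannot be told apart. Since no label gives the cow behind a library, p-values cover the spread between these samples.

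Lipoproteins carry cholesterol and phospholipids in plasma and tissue fluid, and apolipoproteins are the proteins that hold them together and bind them to receptors. High-density lipoprotein (HDL), built around APOA1, is the most abundant lipoprotein of bovine plasma, and steroid-producing cells take cholesterol from it through the receptor SCARB1. LRP1, VLDLR and LRP8 belong to a family of receptors that take up or signal from ligands such as APOE, protease complexes and reelin.

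PLTP, APOD and CLU fell by day 6, whereas no call was made for APOA1, APOE, APOM and the 3 receptors. A gene was called where the adjusted p of the authors' Wald test, in the authors' deposited table, lay under 0.05. By this rule 3 of the 9 genes were lower and 0 higher on day 6, and 4 had an unadjusted p under 0.05. Across the 19485 entries tested, 14.5% were called, 10.4% lower and 4.12% higher on day 6. The list was assembled with earlier results of these data known, so the members' share of 33.3% describes these genes only. The authors' test refers the statistic to a normal distribution. Under a t distribution (5 degrees of freedom, for 7 libraries in 2 groups) 0 of the 9 genes and 0 of all entries were called, with 3 of the 9 genes and 3133 entries at an unadjusted p under 0.05. Levels are the authors' mean TPM, a share of all transcripts scaled by length, with 1 mean per day. Values of single libraries and their depth are not analysed here, so the number of libraries that share a direction is unknown. Each log2 fold change (day 6 over day 4) was obtained by multiplying the authors' Wald statistic with its standard error, and is given ± that error.

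**Figure D1:**
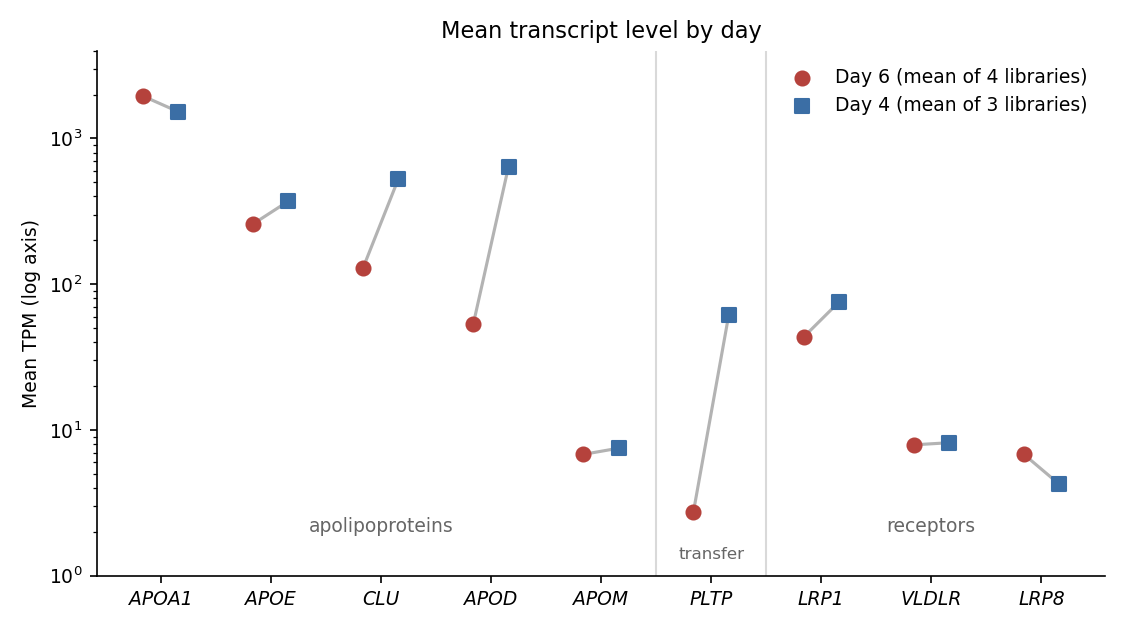
Mean TPM (log axis) of the 9 genes on day 6 (circles) and day 4 (squares), joined by a line per gene. PLTP (2.75 TPM on day 6, 61.1 TPM on day 4) and APOD (53.3 TPM and 640.5 TPM) have the steepest lines, and APOA1 is the most abundant of the 9 on both days.

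APOA1, the main structural protein of HDL and the activator of the enzyme LCAT, was by far the most abundant of the 9 genes on both days. Its mean was 1954 TPM on day 6 and 1527 TPM on day 4, which ranked it 58 among all entries on day 6 and 105 on day 4. The log2 fold change was 0.57 ± 0.53 (95% interval -0.46 to 1.60, adjusted p = 0.4995, from the authors' deposited table). The interval runs from a fold of 0.728 to a fold of 3.04, so neither a modest fall nor a tripling lies outside it. Its standard error was larger than that of 88.9% of the 13988 tested entries that averaged at least 1 TPM.

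APOE, a ligand of LRP1, VLDLR and LRP8, was the next most abundant of the 9 genes on day 6. Its mean was 259 TPM on day 6 and 371 TPM on day 4, with a log2 fold change of -0.31 ± 0.36 (adjusted p = 0.603, from the authors' deposited table). The 95% interval of -1.01 to 0.39 includes both directions. APOM, a lipocalin that carries sphingosine phosphate on HDL, was a low transcript, with 6.80 TPM on day 6 and 7.49 TPM on day 4. It had one of the tightest estimates, 0.08 ± 0.23 (adjusted p = 0.873, from the authors' deposited table), with a 95% interval of -0.38 to 0.53. Its sign turned with the scale: it was -0.14 with changes put on the scale of the TPM means, and 0.20 with the mitochondrially encoded genes then left out, both described with the scales.

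APOD, a lipocalin that binds small hydrophobic molecules such as arachidonic acid and progesterone, fell. Its mean was 53.3 TPM on day 6 and 640.5 TPM on day 4. The log2 fold change was -3.41 ± 0.72 (adjusted p = 9.47e-05, from the authors' deposited table), a Wald fold of 10.6 lower, with a 95% interval of 4.02 to 28.1 lower. On day 4 APOD was the apolipoprotein next in abundance to APOA1, and on day 6 it lay below APOE and CLU. Its rank among all entries was 1923 on day 6 and 211 on day 4.

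CLU, also called apolipoprotein J, is a secreted chaperone found on HDL and widely described in regressing tissues. It averaged 130 TPM on day 6 and 529 TPM on day 4. The log2 fold change was -1.83 ± 0.53 (adjusted p = 0.0077, from the authors' deposited table), a Wald fold of 3.57 lower, with a 95% interval of 1.74 to 7.32 lower. Of the 3 called genes it had the smallest change, and against a fold of 1.5 in place of no change it was not called (adjusted p = 0.359), whereas APOD (adjusted p = 0.00562) and PLTP (adjusted p = 1.19e-05) were.

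PLTP, which moves phospholipids between lipoproteins and remodels HDL, had the largest change of the 9 genes. It averaged 2.75 TPM on day 6 and 61.1 TPM on day 4. The log2 fold change was -4.31 ± 0.68 (adjusted p = 5.77e-08, from the authors' deposited table), a Wald fold of 19.9 lower, with a 95% interval of 7.91 to 50.01 lower. Among the 1387 entries called lower that averaged at least 2 TPM, its change ranked 74, that of APOD 134 and that of CLU 377. Standard errors of both APOD and PLTP were wide, larger than those of 94.8% and 94.04% of tested entries of at least 1 TPM.

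**Figure D2:**
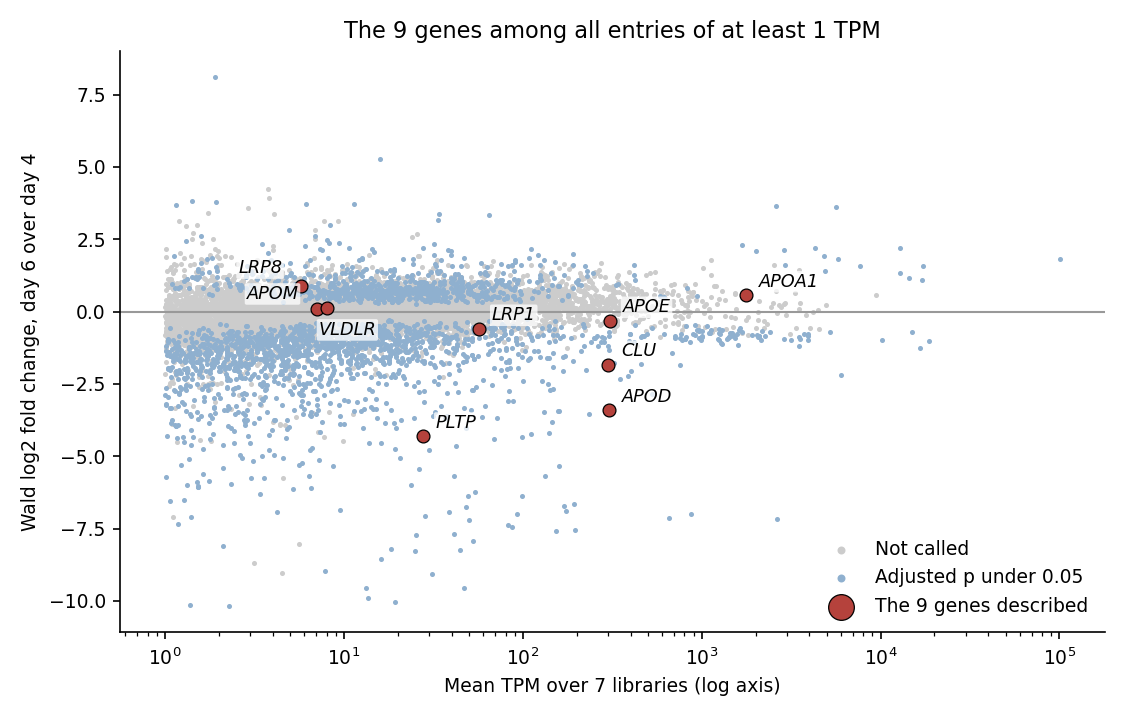
Wald log2 fold change (day 6 over day 4) against mean TPM over all 7 libraries (log axis) for tested entries of at least 1 TPM, with the 9 genes in red. PLTP, APOD and CLU lie at -4.31, -3.41 and -1.83, and the other 6 genes lie between -0.59 and 0.90.

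Among the receptors LRP1, a large endocytic receptor for APOE, protease complexes and matrix proteins, was the most abundant on both days. It averaged 43.3 TPM on day 6 and 75.3 TPM on day 4. Its log2 fold change was -0.59 ± 0.27 (unadjusted p = 0.0282, adjusted p = 0.121, from the authors' deposited table), with a 95% interval of -1.11 to -0.06, and it was not called. VLDLR, a receptor for triglyceride-rich lipoproteins and reelin, averaged 7.90 TPM on day 6 and 8.17 TPM on day 4. Its log2 fold change was 0.13 ± 0.26 (95% interval -0.38 to 0.63, adjusted p = 0.789, from the authors' deposited table), and its sign turned to -0.09 on the TPM scale. That interval spans folds of 0.771 to 1.55 and leaves out a change as large as those of PLTP, APOD and CLU. LRP8, an apolipoprotein E receptor that also signals from reelin, averaged 6.82 TPM on day 6 and 4.25 TPM on day 4. Its log2 fold change was 0.90 ± 0.53 (95% interval -0.14 to 1.93, adjusted p = 0.248, from the authors' deposited table). The order of the mean levels was LRP1, VLDLR and LRP8 on both days. VLDLR exceeded LRP8 by 1.16 times on day 6 and 1.92 times on day 4, and without library values it could not be tested whether these neighbours differ.

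The makeup of the 9 genes' transcripts therefore differed between days. Their mean TPM summed to 2464 on day 6 and 3224 on day 4. APOA1 made up 79.3% of this sum on day 6 and 47.4% on day 4. The share of APOD was 2.16% on day 6 and 19.9% on day 4, and that of CLU 5.28% on day 6 and 16.4% on day 4. APOE held a like share on both days, 10.5% on day 6 and 11.5% on day 4. Without APOA1 the other members summed to 510 TPM on day 6 and 1697 TPM on day 4. Ratios within a day do not change when all means of that day are scaled by the same factor. Scaling each library by its own factor before averaging could change them. APOA1 exceeded APOD by 36.7 times on day 6 and 2.38 times on day 4. The ratio of APOE to APOD was 4.87 on day 6 and 0.58 on day 4. The 3 receptors summed to 58.03 TPM on day 6 and 87.7 TPM on day 4, mostly LRP1. These sums and ratios come from group means, have no replicate error and were not tested.

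Scaling matters for the small changes. Mitochondrially encoded genes took 29.2% of the mean TPM on day 6 and 10.3% on day 4. Entry by entry, the Wald log2 fold change exceeded the log2 ratio of mean TPM by a median of 0.21 (10599 entries of at least 5 TPM). With that shift removed (the TPM scale), LRP1 was called lower (-0.80, adjusted p = 0.0178), and with the mitochondrially encoded genes then taken out of the TPM (the nuclear TPM scale) it stood at -0.46 (adjusted p = 0.218). On the TPM scale 4 of the 9 genes were lower and 0 higher, where 21.2% of entries were called, 19.7% lower and 1.53% higher. On the nuclear TPM scale 3 of the 9 genes were lower and 0 higher, where 17.6% of entries were called, 8.18% lower and 9.41% higher. PLTP, APOD and CLU were called lower on each of these scales, with CLU at -2.05 on the TPM scale and -1.71 on the nuclear TPM scale (adjusted p = 0.0137). APOA1 and LRP8 stayed positive and APOE negative on each, none of them called.

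**Figure D3:**
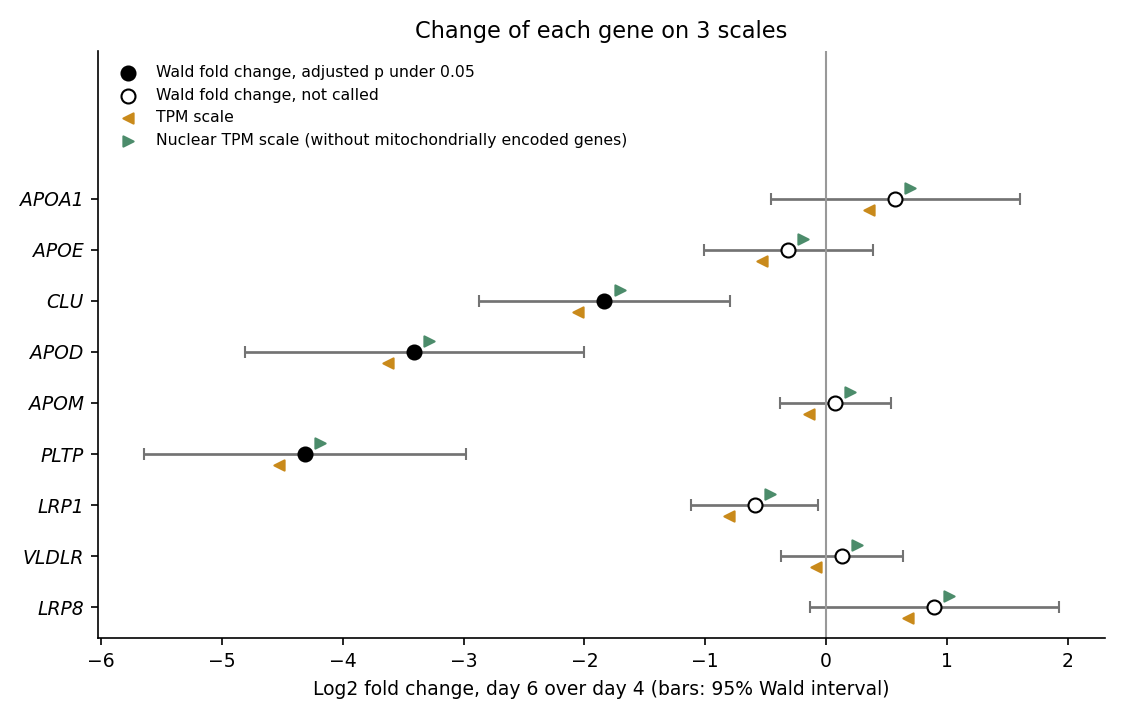
Log2 fold change (day 6 over day 4) of the 9 genes with 95% Wald intervals; filled circles have an adjusted p under 0.05, and triangles give the same change on the TPM scale (pointing left) and on the nuclear TPM scale (pointing right). The intervals of PLTP, APOD, CLU and, narrowly, the uncalled LRP1 lie below 0 on the Wald scale, and those of APOM and VLDLR lie across 0 close to its centre.

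Lists of marker genes for the cells that whole luteal tissue can hold were read beside these results. Steroidogenic markers were abundant in this luteal tissue: 9 genes summed to 23973 TPM on day 6 and 13415 TPM on day 4, with 1 of 9 called higher (STAR) and 0 lower. OXT alone had 10393 TPM on day 6 and 8052 TPM on day 4 (log2 0.56 ± 1.33). On the TPM scale 1 of the 9 was called higher and 0 lower. On the nuclear TPM scale 3 were called higher (STAR, NR5A1 and INHA) and 0 lower. Pericyte and smooth muscle markers summed to 618 TPM on day 6 and 2341 TPM on day 4, with 5 of 9 called lower. These were the contractile genes ACTA2, TAGLN, MYH11, CNN1 and DES. RGS5, CSPG4, PDGFRB and NOTCH3 were not called (log2 0.05, -0.18, -0.46 and -0.45). PDGFRB was called lower on the TPM scale but not on the nuclear TPM scale. Macrophage markers summed to 71.7 TPM on day 6 and 177 TPM on day 4, with 6 of 12 called lower. Fibroblast markers summed to 10293 TPM on day 6 and 12651 TPM on day 4, with DCN, PDGFRA and FBLN1 called lower among 10. Endothelial markers summed to 337 TPM on day 6 and 449.6 TPM on day 4, with 2 of 10 called lower. T cell markers summed to 9.05 TPM on day 6 and 21.1 TPM on day 4, with 2 of 8 called lower. Markers of plasma and red cells summed to 12.2 TPM on day 6 and 48.04 TPM on day 4, mostly AHSG (6.37 TPM on day 6, 31.4 TPM on day 4) and HBA (3.56 TPM on day 6, 15.1 TPM on day 4), with 0 of 6 tested genes called and HBA not tested. No marker of these lists was at 0 on either day, and by the authors' adjusted p none but STAR was called higher. Across all entries tested, 10.4% were called lower and 4.12% higher on day 6. The lists are short, so their counts describe these genes only. Some markers of several cell types were called lower on day 6, as were PLTP, APOD and CLU. Their part in these results was not tested, and in whole tissue fewer cells of a type and less RNA per cell cannot be told apart.

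The genes that act with these members were read from 5 lists of 77 genes, of which 68 were found and tested in the authors' deposited table. The call was lower on day 6 for 17 and higher for 8, or 36.8% called beside the 14.5% of all entries. These lists were also drawn up with earlier results known, and the counts are a description.

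**Figure D4:**
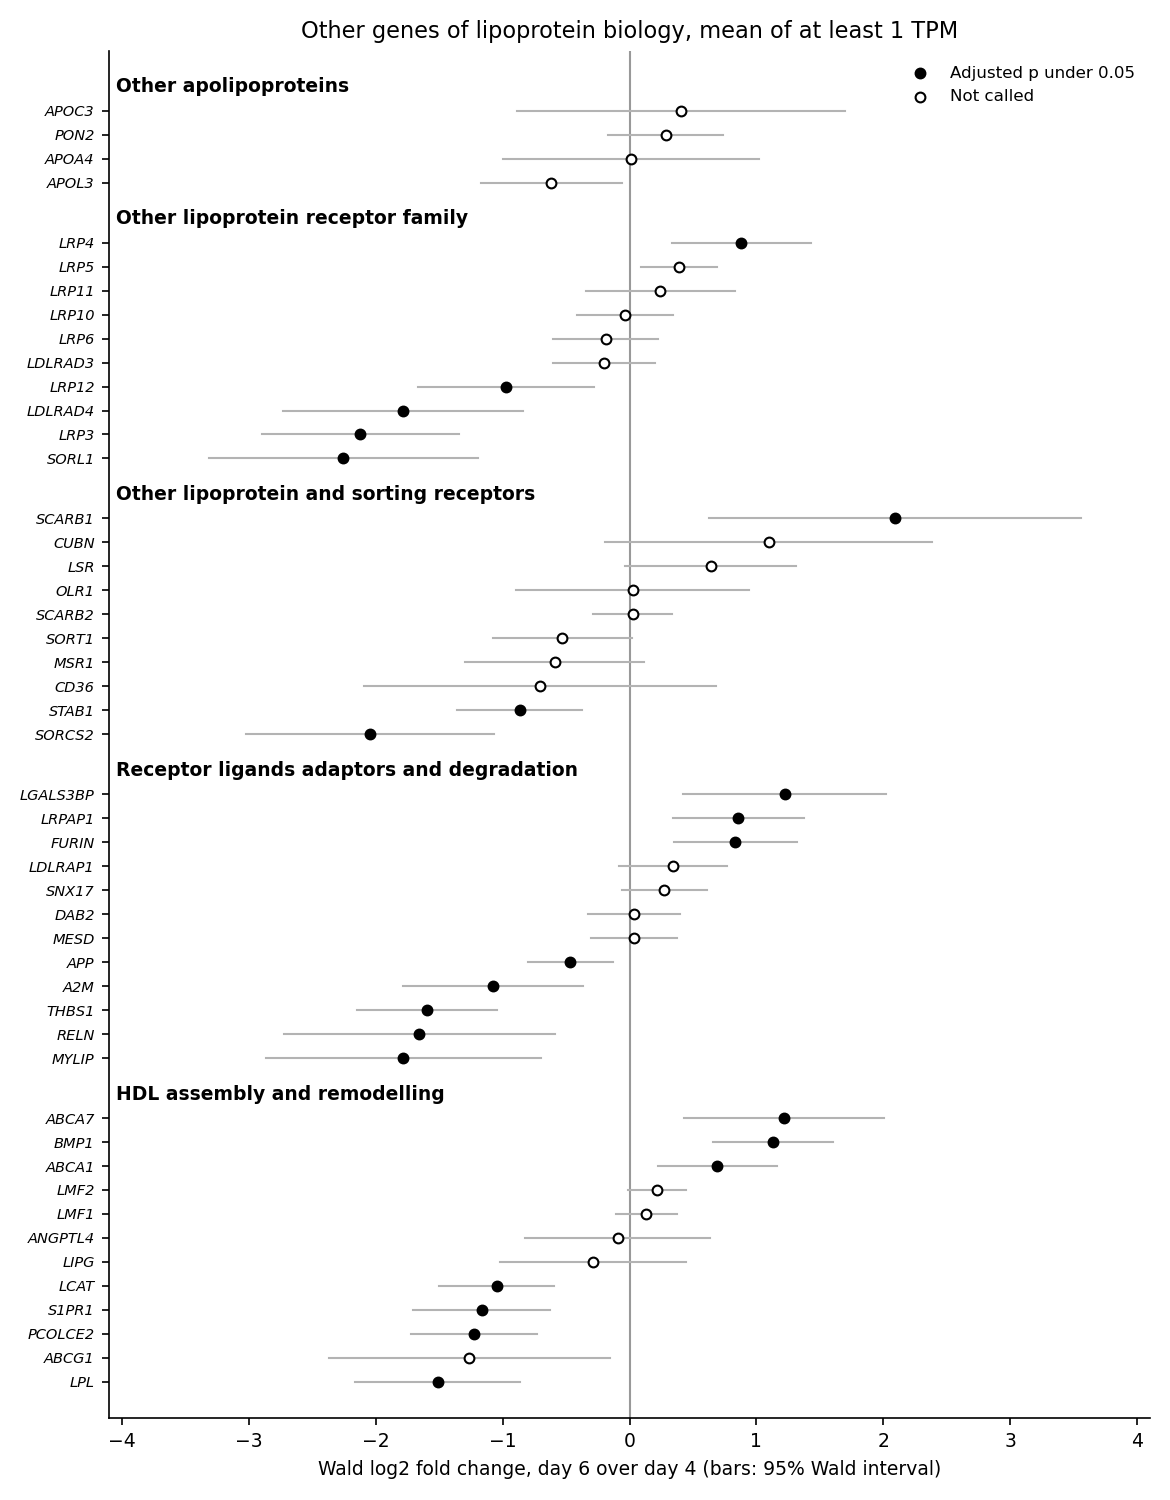
Wald log2 fold change (day 6 over day 4) with 95% Wald intervals of the 48 listed genes that averaged at least 1 TPM, by list; filled circles have an adjusted p under 0.05. Filled circles lie on both sides of 0 in each list but that of the other apolipoproteins, where none is filled.

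Of the other apolipoproteins and the HDL-borne paraoxonases, 12 of 19 were found and 0 were called, and the authors' Wald test gave an unadjusted p under 0.05 for 1 lower and 0 higher. Only 4 of the 12 averaged at least 1 TPM. APOL3, an intracellular relative, had the smallest adjusted p, with 8.26 TPM on day 6 and 14.5 TPM on day 4 (log2 -0.62 ± 0.28, adjusted p = 0.127, from the authors' deposited table). On the TPM scale it was called lower (log2 -0.83, adjusted p = 0.0213), and it was the 1 call of this list there. APOC3, which slows lipoprotein lipase, averaged 12.5 TPM on day 6 and 10.8 TPM on day 4 and was not called. APOB, the structural protein of low-density lipoprotein, was listed at 0 on day 6 and 0.00265 TPM on day 4. The median log2 fold change was 0.28 over the 9 not listed at 0 on a day, beside -0.04 over all tested entries treated alike.

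Of the other members of the receptor family, 1 of 12 was higher and 5 were lower on day 6. SORL1, a sorting receptor that binds APOE, fell to 1.51 TPM on day 6, against 7.42 TPM on day 4 (log2 -2.26 ± 0.54, adjusted p = 0.00091, from the authors' deposited table). LRP3 fell to 0.451 TPM on day 6, against 2.28 TPM on day 4 (log2 -2.12 ± 0.40, adjusted p = 8.38e-06, from the authors' deposited table). LDLRAD4, a membrane protein that dampens TGF-beta signalling, and LRP12 fell too, with log2 fold changes of -1.78 ± 0.48 and -0.97 ± 0.35 in the authors' deposited table. LRP1B, the nearest relative of LRP1, fell at a low level, 0.361 TPM on day 6 and 1.17 TPM on day 4. LRP4, a receptor of agrin, rose to 9.97 TPM on day 6, against 6.30 TPM on day 4 (log2 0.88 ± 0.28, adjusted p = 0.0168, from the authors' deposited table), and the call of its rise was lost on the TPM scale. The list's median was -0.20.

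Of the other lipoprotein and sorting receptors, 1 of 14 was higher and 3 were lower. SCARB1, the HDL receptor that draws cholesterol esters from particles built on APOA1, was higher on day 6 (log2 2.09 ± 0.75 in the authors' deposited table), a call that was lost on the TPM scale. STAB1, a scavenger receptor of macrophages and sinusoidal endothelium, fell to 8.47 TPM on day 6, against 17.6 TPM on day 4 (log2 -0.87 ± 0.25, adjusted p = 0.00828, from the authors' deposited table). SORCS2, a sortilin relative, fell to 1.76 TPM on day 6, against 8.02 TPM on day 4 (log2 -2.05 ± 0.50 in the authors' deposited table). SORCS3 was called lower and was listed at 0 on day 6, with 0.154 TPM on day 4. The median was -0.53 over the 13 not listed at 0, and only 10 of the 14 averaged at least 1 TPM.

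The list of ligands and handlers of the 3 receptors, which also holds the secreted glycoprotein LGALS3BP, had calls in both directions. Of its 13 genes 5 were lower and 3 higher, LGALS3BP among the latter. RELN, the reelin gene, whose product signals through VLDLR and LRP8, fell to 0.749 TPM on day 6, against 2.67 TPM on day 4 (log2 -1.66 ± 0.54, adjusted p = 0.0228, from the authors' deposited table). MYLIP, a ubiquitin ligase that directs VLDLR and LRP8 to degradation, fell to 6.19 TPM on day 6, against 24.4 TPM on day 4 (log2 -1.78 ± 0.55, adjusted p = 0.0147, from the authors' deposited table). THBS1, a thrombospondin and cargo of LRP1, fell, with 66.1 TPM on day 6 and 231 TPM on day 4 (log2 -1.60 ± 0.28, adjusted p = 1.78e-06, from the authors' deposited table). A2M, the protease inhibitor alpha-macroglobulin, averaged 801 TPM on day 6 and 1919 TPM on day 4, and APP averaged 260.3 TPM on day 6 and 401 TPM on day 4. Both A2M and APP were called lower, and both calls were lost on the nuclear TPM scale, as was that of LRP12. LRPAP1, the chaperone that keeps ligands off newly made LRP1 and its relatives, rose to 107 TPM on day 6, against 69 TPM on day 4 (log2 0.86 ± 0.26, adjusted p = 0.0137, from the authors' deposited table). FURIN, the protease that cleaves the LRP1 precursor (log2 0.83 ± 0.25), and LGALS3BP, a secreted glycoprotein (log2 1.22 ± 0.41), were higher as well by the authors' deposited table. The calls of LRPAP1, FURIN and LGALS3BP were lost on the TPM scale. The median was 0.04.

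The list of HDL assembly and remodelling, the work of APOA1 and PLTP, also holds the receptor S1PR1. Of its 17 genes 4 were called lower, S1PR1 among them, and 3 higher. LCAT, the enzyme that APOA1 activates to esterify cholesterol on HDL, fell to 14 TPM on day 6, against 33.1 TPM on day 4 (log2 -1.05 ± 0.23, adjusted p = 0.000225, from the authors' deposited table). LPL, the lipoprotein lipase, fell to 26.3 TPM on day 6, against 86.4 TPM on day 4 (log2 -1.51 ± 0.33, adjusted p = 0.000204, from the authors' deposited table). BMP1, a protease that trims the APOA1 precursor, rose to 112 TPM on day 6, against 59.9 TPM on day 4 (log2 1.13 ± 0.24, adjusted p = 0.000124, from the authors' deposited table). PCOLCE2, which enhances that trimming, fell to 10.4 TPM on day 6, against 28 TPM on day 4 (log2 -1.23 ± 0.25 in the authors' deposited table). ABCA1, which loads cholesterol onto APOA1, rose to 24.4 TPM on day 6, against 17.6 TPM on day 4 (log2 0.69 ± 0.24, adjusted p = 0.0313, from the authors' deposited table). Its relative ABCA7 rose at a low level, to 4.96 TPM on day 6 against 2.55 TPM on day 4. S1PR1, a receptor of the sphingosine phosphate that APOM carries, fell to 9.50 TPM on day 6, against 24.6 TPM on day 4 (log2 -1.17 ± 0.28, adjusted p = 0.000738, from the authors' deposited table). On the TPM scale BMP1 remained called, and ABCA1 and ABCA7 did not. The list's median was -0.75, the value of ANGPTL8, a low transcript with 0.233 TPM on day 6 and 0.462 TPM on day 4. Only 12 of the 17 genes averaged at least 1 TPM, so this median rests in part on low transcripts.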

How the data were processed

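The authors' deposited table holds 1 mean per day and 1 test per entry. The build ARS-UCD1.2 and the tools FastQC and DESeq2 are listed per the submitters' processing notes. The read counter, annotation and versions used upstream were not given in the sources used here. Mean columns are in TPM, as the deposited values of each sum to 999999. In the deposited log2 column the authors compared mean TPM with 1 added to each (equal in 19539 entries, tolerance 1e-06). It was used as an alternative only. The deposited score is the authors' Wald statistic. The authors' p-value is its two-sided normal p in 19485 entries, adjusted over these by Benjamini-Hochberg, and 54 entries with a p of 1 were left out of tests. Intervals are 95% Wald intervals. The normal Wald test and its adjustment were tried on simulated data, with normal noise drawn from the deposited standard errors and 200 entries changed. The other settings and the scale shift were not tested by this simulation. Python 3.11.15, scipy 1.17.1 and pandas 2.3.3 were used.

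The members and lists were chosen with earlier results of these data known. The text names all members, the called genes of the pathway lists and, in a list with no call, the gene of smallest adjusted p. APOC3, APOB and ANGPTL8 were named after their values were seen. Some listed genes are not reported here and are left out of the counts. PCOLCE2 was listed under its older symbol, and of repeated symbols such as APOL3 the entry with the highest mean was taken. The symbols APOC1, APOF, APOL6, APON, APOR, SAA1, SAA4, GPIHBP1, CETP and HBA1 were not matched. Markers of plasma and red cells (HBB, ALB, TTR, FGB, APOH, AHSG and HBA) had 0 of 6 tested genes called, and the authors' Wald test gave an unadjusted p under 0.05 for 1 higher and 0 lower. HBA was not tested. Gene order came from RefSeq's ARS-UCD2.0, from which no coordinates are given. Planned tests on library values were not run, since the table has group means.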

Additional observations from a re-analysis of the deposited data

How the results depend on the processing

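Directions and calls of APOA1, APOE, APOD, CLU, PLTP and LRP8 were kept on the TPM scale and on that scale without the mitochondrially encoded genes. APOM was -0.14 on the TPM scale, -0.12 as a log2 ratio of mean TPM with 1 added and -0.14 with 0.1 added. VLDLR was -0.086, -0.043 and -0.047 in the same settings. Each value was reversed against the Wald value, and neither gene was called on the TPM scale. All these settings use TPM with the mitochondrially encoded genes kept in. On the nuclear TPM scale APOM (0.20) and VLDLR (0.26) kept the sign of the Wald value and were uncalled. LRP1 was called on the TPM scale (-0.80). Under a t distribution (5 degrees of freedom) 0 of the 9 genes were called, as were 0 of all entries in either direction and 0 of the pathway genes. The adjusted p was then 0.245 for PLTP and APOD and 0.263 for CLU, with 3133 entries and 3 of the 9 genes at an unadjusted p under 0.05. That 0.245 was the lowest adjusted p of any entry under this setting. DES, with an authors' Wald statistic of -11.1, had the same value, so it does not rank these genes. An adjusted p under 0.01 kept the 3 calls, and left 2 pathway genes higher and 12 lower, with 301 entries higher and 1142 lower. A test against a fold of 1.5 left 2 members, 0 pathway genes higher and 3 lower, and 45 entries higher and 457 lower. On the TPM scale 1 pathway gene was higher and 20 were lower, with 299 entries higher and 3829 lower. Without the mitochondrially encoded genes 10 pathway genes were higher and 14 lower, with 1832 entries higher and 1592 lower. In the table used, the main counts were 803 higher and 2020 lower. No paired analysis was possible because only group means were used, and leaving out single libraries could not be run for the same reason. Depth per library is unknown.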

Other observations

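The genes beside the members in RefSeq's gene order (ARS-UCD2.0) were read after the members' values were known, taking the nearest protein-coding gene with an entry on each side. Of the 18 neighbours, 2 were called higher (SIK3, beside APOA1, and PPP1R2) and 0 lower on day 6, where 4.12% of all entries were called higher and 10.4% lower. On the TPM scale 1 was higher (SIK3) and 1 lower (PCIF1, log2 -0.81, adjusted p = 0.0386), and on the nuclear TPM scale 4 were higher (SIK3, PPP1R2, BAG6 and STAT6) and 0 lower. Some neighbours were barely detected, such as TMEM215 beside CLU, with 0.0343 TPM on day 6 and 0.058 TPM on day 4. APOC3, APOA4 and APOA5 stand next to APOA1 in a cluster, yet had 12.5, 3.14 and 0.69 TPM on day 6 and 10.8, 3.50 and 0.472 TPM on day 4, beside 1954 and 1527 TPM of APOA1. The neighbours of APOE, TOMM40 and APOC4, had 55.7 and 0.154 TPM on day 6, and on day 4 TOMM40 had 41 TPM and APOC4 was listed at 0. Neither was called. CTSA, a lysosomal carboxypeptidase beside PLTP, had 115 TPM on day 6 and 133 TPM on day 4 (log2 -0.00 ± 0.16 in the authors' deposited table), and PCIF1 on the other side of PLTP had 9.81 TPM on day 6 and 17.5 TPM on day 4 (adjusted p = 0.176 in the authors' deposited table). PPP1R2, a phosphatase inhibitor beside APOD, rose to 42.7 TPM on day 6, against 35 TPM on day 4 (log2 0.52 ± 0.18 in the authors' deposited table), a call that was lost on the TPM scale (adjusted p = 0.231). SCARA3, a scavenger receptor relative beside CLU, had 23.1 TPM on day 6 and 25.5 TPM on day 4 and was not called.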
